A study of Mus musculus with 12 samples.

Results

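Adhesion G protein-coupled receptors are a family of cell-surface receptors, and their genes were taken by symbol: every gene whose current symbol starts with Adgr, together with Celsr1, Celsr2 and Celsr3. The rule found 31 genes of the 41214 in the deposited table, in 9 subfamilies. Of these, 30 are annotated as protein coding and 1, Adgrd2-ps, as a transcribed pseudogene. The rule uses the symbol and no expression value. A low-count filter left 18 members to test, and the 13 others were too low to test and are given by their counts.

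The libraries were made from sorted endothelial cells of embryonic mouse ventricles, in 4 groups: E13 endocardial (n = 4), E13 coronary (n = 4), E17 endocardial (n = 2) and E17 coronary (n = 2). The stages are written E13 and E17 in the sample labels, and E13.5 and E17.5 in the series' design text. The E13 embryos carried the reporter transgene Nes-gfp (Tg/0). The E17 embryos carried Nes-Gfp and the Cre driver Nes-CreER, both Tg/0, with R26 (tom/+), a Cre-dependent Tomato reporter, and had received 0.1 ug of tamoxifen at E15.5. All sorted cells were DAPI-, Ter119-, CD45- and CD31+. At E13 the endocardial gate was GFP-low and Emcn-high, and the coronary gate was GFP+. At E17 the endocardial gate is given only as GFP+, and the coronary cells were sorted by a pair of Emcn-low gates. The Tomato+ gate was for arterial vessels and capillaries and the Tomato- gate for venous vessels. Which of these gave the E17 coronary libraries is not stated in the sources used here. GFP is driven by Nes (nestin) regulatory sequence, so the gates follow that transgene as well as the vessel bed. Stage therefore cannot be told apart from genotype, tamoxifen, gate or batch, whereas an endocardial and a coronary library of the same stage share each batch.

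An adhesion receptor has a long extracellular part that binds other cells or matrix, a GAIN domain in which most members cut themselves into 2 fragments that stay attached, and 7 membrane-spanning helices that signal through G proteins. Binding or pulling on the extracellular part can expose a tethered peptide next to the cut and switch the receptor on. In endothelium the family is known for Adgra2 (GPR124), which brain vessels need to answer Wnt7 ligands, for Adgrf5 and Adgrl4 (ELTD1), which are common endothelial receptors, and for Adgrg6 (GPR126), which is needed in heart development and in the myelination of peripheral nerves.

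Expected read counts summed to between 14973633 and 27360653 per library. All 11 endothelial markers had counts in every group, with a summed level of 6413 to 13885 CPM (counts per 1000000, on library sizes scaled by the TMM method). The sum was 6413 to 8619 CPM in the E13 coronary libraries and 10077 to 13885 CPM in all others. At E13, 8 of the 11 were called lower and 2 higher in coronary than in endocardial libraries, beside 29.9% and 30.1% of all tested genes. Emcn is among the 8, and the E13 endocardial gate was itself Emcn-high. Pecam1, which encodes the CD31 of the gates, is among them too. Leukocyte markers summed to 21.3 to 75 CPM, and Ptprc, which encodes the CD45 used in the gate, stayed at or below 0.437 CPM in every library. Separate litters are not stated for the replicates, so the p-values rest on the spread between these libraries, which may be technical. In bulk libraries, fewer cells of a type and less RNA per cell cannot be told apart.

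Measured per length of exon (CPM per kilobase), the 31 members together reached 433 ± 19.3 (SD, n = 4) in E13 endocardial libraries and 279 ± 17.4 (n = 4) in E13 coronary libraries. At E17 the sums were 462 ± 22 (n = 2) in endocardial and 464 ± 41.3 (n = 2) in coronary libraries. The E13 coronary libraries, at 264 to 302, lay below every other library, which ranged from 405 to 494. The endothelial marker sum was lowest in the same 4 libraries, and its part in the family sum was not tested. A few receptors made up most of each sum. The leading 4 held 82.7% ± 0.333 in E13 endocardial, 76.2% ± 2.81 in E13 coronary, 82.7% ± 0.934 in E17 endocardial and 83.4% ± 0.182 in E17 coronary libraries.

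The receptors in the lead differed between the groups. In E13 endocardial libraries the order of levels per kilobase was Adgra2 (169 ± 4.06), Adgrg6 (90.2 ± 5.89), Adgrf5 (71.6 ± 6.11), Adgre5 (26.9 ± 2.86) and Adgrl4 (24.7 ± 1.60), and the last 2 overlapped between libraries. In E13 coronary libraries Adgra2 still led (84.9 ± 4.35), ahead of Adgrf5 (55.8 ± 12.7), Adgre5 (44.6 ± 5.51) and Adgrl4 (27.5 ± 6.20), while Adgrg6 was at 9.94 ± 3.73. The spreads of Adgrf5 and Adgre5 overlapped there. In E17 endocardial libraries the order was Adgra2 (196 ± 12.9), Adgrf5 (96.8 ± 4.61), Adgrg6 (53.3 ± 4.41), Adgrl4 (36.1 ± 0.539) and Adgre5 (30.1 ± 1.29). In E17 coronary libraries Adgrf5 led (157 ± 21.5), followed by Adgre5 (96.8 ± 6.25), Adgrl4 (75.3 ± 9.34) and Adgra2 (57.8 ± 1.76), and Adgrg6 had dropped to 0.388 ± 0.0852. Adgrl1, Adgrl2 and Adgra3 formed a middle tier of 7.02 to 28.0 in all 4 groups. Celsr1, Celsr2 and Adgrg3 lay between 0.987 and 5.58.

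**Figure D1:**
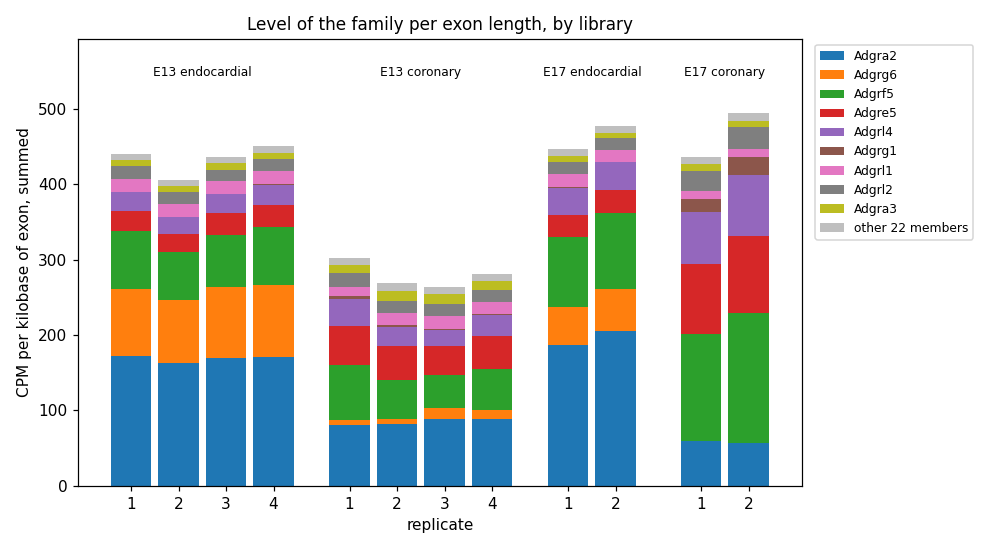
Stacked bars give the level of the family in each library in CPM per kilobase of exon, with the 9 most abundant members coloured and the other 22 summed in grey. The Adgrg6 and Adgra2 segments are shorter in the coronary bars than in the endocardial bars of the same stage, and the Adgrf5, Adgre5 and Adgrl4 segments are longest in the E17 coronary bars.

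Differences were tested with edgeR's quasi-likelihood test on all 15171 genes that passed the low-count filter, and a gene was called when its Benjamini-Hochberg adjusted p was under 0.05. A log2 fold change of 1 is a doubling, and signs are coronary minus endocardial or E17 minus E13. Between coronary and endocardial libraries at E13, 9 of the 18 tested members were called, 6 higher and 3 lower in coronary libraries, where 60% of all tested genes were called (30.1% higher and 29.9% lower). At E17, 13 of 18 were called, 8 higher and 5 lower, beside 52.6% of all genes (26.5% and 26.1%). The median absolute log2 fold change of the tested members was 0.47 at E13 and 0.96 at E17, and that of all tested genes was 0.37 and 0.46.

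From E13 to E17, 4 of the 18 were called in endocardial libraries, 2 higher and 2 lower, beside 31.8% of all genes (16.2% and 15.6%). In coronary libraries 12 were called, 6 higher and 6 lower, beside 50.1% (24.6% and 25.6%). The median absolute log2 fold change of the members was 0.29 in endocardial and 0.96 in coronary libraries, against 0.26 and 0.37 over all genes. The difference between the 2 population effects, the log2 fold change at E17 minus that at E13, was called for 11 of 18 members, 6 higher and 5 lower, beside 32.7% of all genes. These counts share libraries and are not independent of each other. Without E17 endocardial replicate 2 no member was called between stages in endocardial libraries, and without E17 endocardial replicate 1 only 2 were.

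**Figure D2:**
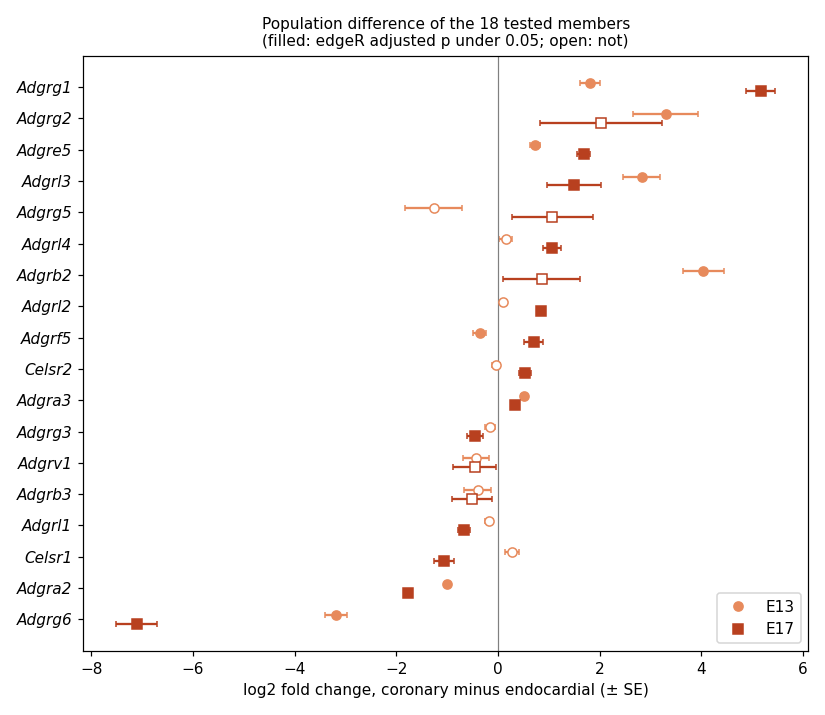
Each row is a tested member, the x axis is the coronary minus endocardial log2 fold change with its standard error, circles are E13 and squares are E17, and filled symbols mark an edgeR adjusted p under 0.05. Adgrg6 has the most negative value at both stages, Adgrg1 moves from 1.81 to 5.17, and Celsr1 and Adgrf5 lie on opposite sides of 0 at the 2 stages.

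Adgrg6 showed the largest population difference of the tested members at E17, and at E13 Adgrb2 and Adgrg2 differed by more. The gene (chr10:14402583-14545659 on the minus strand, GRCm38) encodes a receptor that couples to Gs and is known to bind collagen IV, laminin-211 and the prion protein. E13 endocardial libraries held 1085.7, 1007.8, 1150.0 and 1166.3 CPM and E13 coronary libraries 86.6, 79.4, 172 and 148 CPM. E17 endocardial libraries held 614 and 690 CPM, and E17 coronary libraries 5.49 and 4.01 CPM. Every coronary library lay below every endocardial one. The coronary level was lower by a log2 fold change of -3.18 ± 0.22 (SE) at E13 (edgeR adjusted p = 1.63e-07), in 4 of 4 batches. At E17 the log2 fold change was -7.11 ± 0.40 (edgeR adjusted p = 3.93e-08), in 2 of 2 batches, and the 2 effects differed by -3.93 ± 0.43 (edgeR adjusted p = 2.82e-05). Within coronary libraries Adgrg6 fell by 4.68 on the log2 scale from E13 to E17 (edgeR adjusted p = 8.52e-07). In endocardial libraries its log2 fold change was -0.76 ± 0.26 (edgeR adjusted p = 0.0404), a call that was lost without any single one of E13 endocardial replicates 1 to 4, E17 endocardial replicates 1 and 2 or E17 coronary replicate 1 (adjusted p from 0.0506 to 0.214).

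None of the Adgrg6 ligand genes given here was lower in coronary libraries at both stages, as Adgrg6 was. Col4a1 and Col4a2, the chains of the main collagen IV of basement membrane, were slightly lower in coronary libraries at E13 (log2 fold changes of -0.43 ± 0.11 and -0.33 ± 0.11, edgeR adjusted p = 0.00432 and 0.016). Both were higher there at E17, by 0.74 ± 0.15 and 0.93 ± 0.15 (edgeR adjusted p = 0.00148 and 0.000224). Prnp, the prion protein gene, stood at 26.6 to 31.9 CPM in E13 endocardial and 175 to 295 CPM in E13 coronary libraries. At E17 it was at 66.3 and 71.4 CPM against 206 CPM in both coronary libraries, a log2 fold change of 1.58 ± 0.19 (edgeR adjusted p = 1.67e-05). Lama2, the alpha chain of laminin-211, ranged from 0.654 to 1.69 CPM in endocardial libraries of both stages. It ranged from 6.38 to 20.2 CPM in E13 coronary libraries and reached 54.6 and 44.9 CPM in E17 coronary libraries. Gnas, which encodes the Gs alpha subunit, was higher in coronary libraries at both stages, by log2 fold changes of 0.46 ± 0.06 and 1.25 ± 0.09 (edgeR adjusted p = 4.44e-05 and 2.45e-07). So the receptor was lower in the coronary libraries while the genes of 2 of its ligands and of its G protein were higher in them at both stages.

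Adgra2 was the most abundant member per length in 3 of the 4 groups. Its gene (chr8:27085583-27123436, plus strand) encodes a coreceptor that works with the membrane-anchored protein Reck to present Wnt7a and Wnt7b to Frizzled receptors such as Fzd4 and their coreceptors Lrp5 and Lrp6. Its level was 997, 944, 981 and 988 CPM in E13 endocardial and 463, 476, 514 and 509 CPM in E13 coronary libraries. At E17 it was 1077.0 and 1182.6 CPM in endocardial and 341 and 326 CPM in coronary libraries. The groups did not overlap in any of these comparisons. The log2 fold change was -0.99 ± 0.05 at E13 and -1.76 ± 0.07 at E17 (edgeR adjusted p = 1.19e-08 and 2.90e-09), lower in coronary libraries in every batch, and the effect at E17 differed from that at E13 by -0.77 ± 0.08 (edgeR adjusted p = 3.31e-05). With stage, Adgra2 fell by 0.56 on the log2 scale in coronary libraries (edgeR adjusted p = 1.28e-05). In endocardial libraries it was higher by 0.21 ± 0.06 (edgeR adjusted p = 0.0173), which became 0.14 (adjusted p = 0.218) without E17 endocardial replicate 2. The last exon of Adgra2 overlaps Brf2 on the other strand. Counting without strand cannot separate such reads, and Brf2 reached at most 213 counts in a library.

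Reck was split between the populations in the same direction. It stood at 125, 123, 121 and 132 CPM in the E13 endocardial libraries and 33.7, 45.1, 55.6 and 48.1 CPM in the E13 coronary ones. At E17 the endocardial libraries held 168 and 187 CPM and the coronary ones 25.6 and 22 CPM. Its log2 fold change was -1.46 ± 0.12 at E13 and -2.90 ± 0.18 at E17 (edgeR adjusted p = 5.30e-07 and 6.86e-08). Wnt7a, the ligand gene, had the opposite split: 6.5 to 12.6 CPM in E13 coronary libraries, 0.549 and 0.898 CPM in E17 coronary libraries, and at most 0.0752 CPM in any endocardial library. Wnt7b was too low to test. Fzd4 had coronary levels higher by log2 fold changes of 0.28 ± 0.08 at E13 and 1.11 ± 0.12 at E17 (edgeR adjusted p = 0.012 and 6.65e-06). Lrp5 was lower in them, by log2 fold changes of -0.89 ± 0.06 and -0.81 ± 0.08 (edgeR adjusted p = 8.47e-08 and 4.34e-06), and Lrp6 was lower too (-0.27 ± 0.06 and -0.21 ± 0.08, edgeR adjusted p = 0.0011 and 0.0439). Of the genes of this complex, Adgra2, Reck, Lrp5 and Lrp6 were thus lower and Wnt7a and Fzd4 higher in coronary libraries.

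Adgra3, a relative of Adgra2, went the other way. It was at 69.1 to 71.0 CPM in E13 endocardial libraries and at 92.6, 101, 104 and 103 CPM in E13 coronary libraries. At E17 it was at 60.1 and 53.9 CPM in endocardial and 74.3 and 70.4 CPM in coronary libraries. The coronary level was higher by 0.51 ± 0.05 at E13 and by 0.34 ± 0.07 at E17 on the log2 scale (edgeR adjusted p = 2.51e-06 and 0.00143), in every batch. It fell with stage in coronary libraries by 0.47 on the log2 scale (edgeR adjusted p = 5.37e-05). The fall of 0.30 in endocardial libraries (adjusted p = 0.00296) became a log2 fold change of -0.23 (adjusted p = 0.0516) without E17 endocardial replicate 2.

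Adgrg1 (GPR56) had the largest gain in coronary libraries between the stages. The gene (chr8:94974751-95014217, plus strand) encodes a receptor that couples to G12 and G13 and is known to bind collagen III and transglutaminase 2. Levels were 2.78, 3.17, 2.95 and 4.40 CPM in the E13 endocardial libraries and 15.8, 10.9, 9.48 and 9.81 CPM in the E13 coronary ones. The E17 libraries held 3.38 and 2.53 CPM (endocardial) and 91.6 and 123 CPM (coronary). The endocardial libraries of both stages lay in the same low range, and every coronary library lay above them. The log2 fold change was 1.81 ± 0.20 at E13 and 5.17 ± 0.29 at E17 (edgeR adjusted p = 8.18e-06 and 3.32e-08), and the effects differed by 3.36 ± 0.35 (edgeR adjusted p = 2.03e-05). In coronary libraries Adgrg1 rose by 3.23 ± 0.19 on the log2 scale, 9.36-fold (edgeR adjusted p = 1.06e-07).

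Genes of its ligands and G proteins had differences in both directions. Col3a1, the collagen III gene, was higher in coronary libraries, by log2 fold changes of 1.00 ± 0.24 at E13 and 1.42 ± 0.35 at E17 (edgeR adjusted p = 0.00356 and 0.00433). It also stands on the fibroblast marker list. Tgm2, the transglutaminase gene, was at 209 to 258 CPM in E13 endocardial and 103 to 123 CPM in E13 coronary libraries, a log2 fold change of -1.12 ± 0.10 (edgeR adjusted p = 1.84e-06). At E17 its ranges overlapped, with 310 and 376 CPM in endocardial and 269 and 353 CPM in coronary libraries (log2 fold change -0.14 ± 0.14, edgeR adjusted p = 0.445). Gna13 was higher in the coronary samples, by log2 fold changes of 0.51 ± 0.05 at E13 and 0.73 ± 0.08 at E17 (edgeR adjusted p = 5.17e-06 and 6.34e-06). Gna12 was higher by 0.17 ± 0.06 and 0.58 ± 0.08 (edgeR adjusted p = 0.0209 and 6.70e-05).

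**Figure D3:**
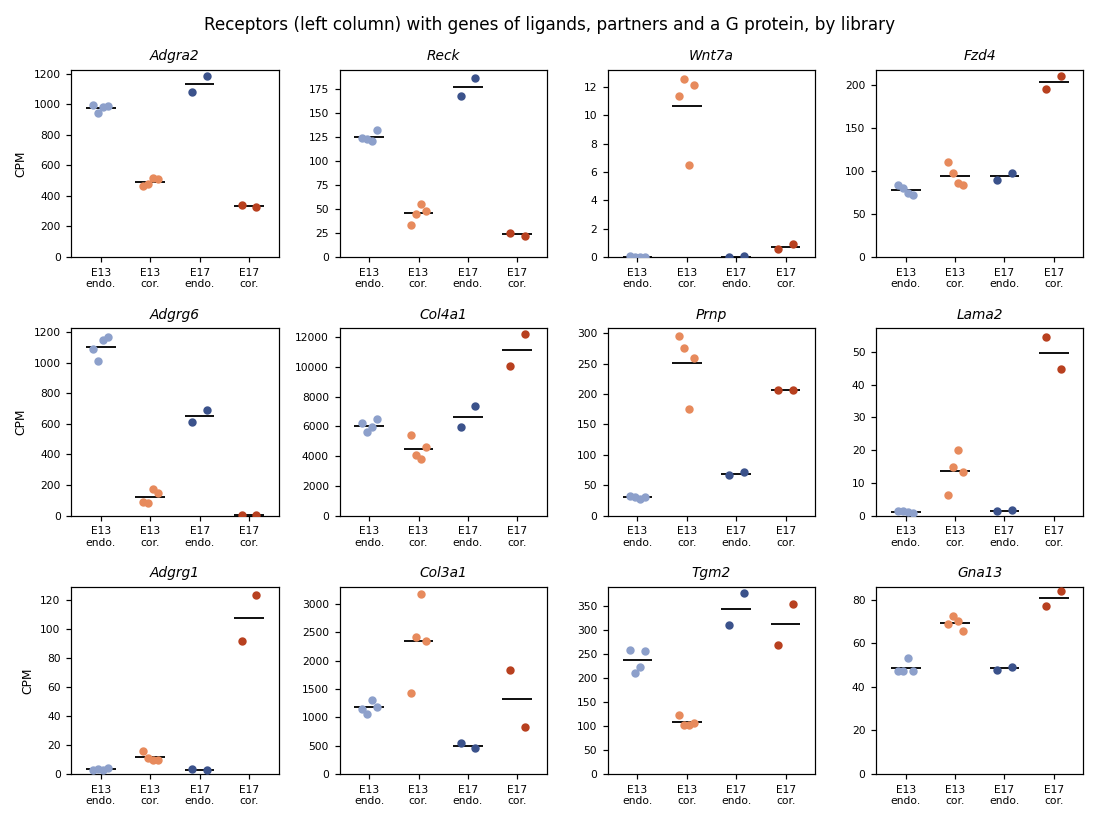
Each panel gives the CPM of a gene in every library by group, with a bar at the group mean, for Adgra2, Adgrg6 and Adgrg1 (left column) and genes of their ligands, partners and a G protein in the same row. Adgra2 and Reck are low in coronary libraries at both stages, Adgrg6 is near 0 in E17 coronary libraries where Lama2 is highest, and Adgrg1 is highest in E17 coronary libraries.

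Of the other subfamily G receptors, Adgrg3 (GPR97), best known from neutrophils, was measured at 11.1 to 17.4 CPM throughout. It held 15.3, 14.8, 15 and 16.5 CPM in the E13 endocardial libraries and 15.7, 13.9, 11.2 and 14.4 CPM in the E13 coronary ones. At E17 it was at 17.2 and 17.4 CPM in the endocardial and 14.3 and 11.1 CPM in the coronary samples. The E13 groups overlapped (log2 fold change -0.16 ± 0.11, edgeR adjusted p = 0.226). The E17 log2 fold change of -0.45 ± 0.15 was called (adjusted p = 0.0281), but not with only the E17 libraries in the fit (adjusted p = 0.0562). Nor was it called without E17 endocardial replicate 1, E17 endocardial replicate 2 or E17 coronary replicate 2, where the log2 fold change was -0.45, -0.44 and -0.27 (adjusted p = 0.0863, 0.0929 and 0.242). Adgrg2 and Adgrg5 were tested but scarce. Adgrg2, known from the efferent ducts of the testis, had 8 counts over the 4 E13 endocardial libraries and 81 over the 4 E13 coronary libraries, a ratio of counts per total of 11.5 (exact interval 5.57 to 27.5, for counting error only). The edgeR log2 fold change was 3.30 ± 0.64 (adjusted p = 0.000764), with the coronary library higher in 4 of 4 batches. Adgrg2 passed the low-count filter only through the E13 coronary libraries, so its call there is not independent of the filter. At E17 the counts were 2 and 8, a ratio of 4.34 (0.867 to 42), which was not called (adjusted p = 0.176). Adgrg5, a receptor of blood cells, did not pass at either stage (log2 fold changes of -1.26 ± 0.56 and 1.07 ± 0.80, edgeR adjusted p = 0.0689 and 0.286). Its sign at E17 rested on E17 coronary replicate 2, at 0.898 CPM, without which the log2 fold change was -0.35 (adjusted p = 0.824).

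Adgrf5 (GPR116) and Adgrl4 (ELTD1) are receptors of endothelium at large. Together their loss in mice is known to damage small vessels and to affect the heart's outflow vessels. Adgrf5 lies at chr17:43360451-43459557 (plus strand) and Adgrl4 at chr3:151437887-151545086 (plus strand). Both had their highest levels in E17 coronary libraries. Adgrf5 was at 687, 581, 619 and 695 CPM in the E13 endocardial libraries and 663, 461, 397 and 491 CPM in the E13 coronary ones. In the E17 endocardial libraries it was at 843 and 901 CPM, and in the E17 coronary ones at 1280.6 and 1554.3 CPM. At E13 the groups overlapped only through coronary replicate 1. Adgrl4 was at 117, 103, 114 and 119 CPM in the E13 endocardial libraries and 163, 118, 95 and 128 CPM in the E13 coronary ones. At E17 the endocardial libraries held 164 and 167 CPM and the coronary ones 315 and 376 CPM.

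Both receptors rose in coronary libraries between the stages by similar amounts, 1.49 ± 0.16 for Adgrf5 and 1.46 ± 0.15 for Adgrl4 on the log2 scale (edgeR adjusted p = 7.92e-06 and 7.65e-06). Of the 11 endothelial markers, 10 rose and 1 fell in the same comparison, where 24.6% of all genes rose and 25.6% fell. The median log2 fold change of these markers was 0.91 beside -0.02 over all genes. The part of these markers in the rise of the 2 receptors was not tested. In endocardial libraries Adgrl4 was higher at E17 by 0.55 ± 0.15 (edgeR adjusted p = 0.0178), a call lost without E17 endocardial replicate 1 or 2 (log2 fold changes of 0.56 and 0.53, adjusted p = 0.0852 and 0.0995). Adgrf5 did not pass there (0.43 ± 0.16, edgeR adjusted p = 0.0556). Of 17 alternatives 12 gave no call for it either and the others gave one, with log2 fold changes from 0.38 to 0.48 over all of them. At E17 the coronary level was higher by 0.70 ± 0.19 for Adgrf5 and 1.06 ± 0.18 for Adgrl4 (edgeR adjusted p = 0.00724 and 0.000356). Without E17 endocardial replicate 1 or E17 coronary replicate 2 the Adgrf5 value was 0.65 or 0.56 and no longer passed (adjusted p = 0.0517 and 0.0658). At E13 Adgrl4 did not pass (0.15 ± 0.13, edgeR adjusted p = 0.328). Adgrf5 was lower in coronary libraries by a log2 fold change of -0.36 ± 0.13 (adjusted p = 0.0326), a call lost without E13 endocardial replicate 1 or 4 or E13 coronary replicate 2, 3 or 4 (log2 fold changes from -0.33 to -0.24, adjusted p from 0.0774 to 0.0977). The population effect differed between stages by 1.06 ± 0.23 for Adgrf5 and 0.91 ± 0.22 for Adgrl4 (edgeR adjusted p = 0.00376 and 0.00779). Of the ligands proposed for Adgrf5, Sftpd (surfactant protein D) had no count in any library, and Fndc4 ranged from 5.19 to 18.1 CPM, with the most in E13 coronary libraries.

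Promoter sequence was read from RefSeq (GRCm38.p6), where 22 members have 26 annotated starts. The windows shown are the 250 bases before the start, written 5′ to 3′ on the gene's strand, for 3 members that rose in coronary libraries between stages (Adgrl4, Adgrf5 and Celsr2) and for Adgrb2, whose level was highest in E13 coronary libraries and then fell. Their windows were shown because they overlap no annotated exon, and Adgrf5 has 2 annotated starts. Capitals mark matches, on either strand, to letters known from factors of endothelial and vascular genes: AGGAAG or CGGAAG for ETS factors, AGATAA for GATA factors and CCNCNCCC for KLF factors.
Adgrl4, chr3:151437632-151437881, plus strand: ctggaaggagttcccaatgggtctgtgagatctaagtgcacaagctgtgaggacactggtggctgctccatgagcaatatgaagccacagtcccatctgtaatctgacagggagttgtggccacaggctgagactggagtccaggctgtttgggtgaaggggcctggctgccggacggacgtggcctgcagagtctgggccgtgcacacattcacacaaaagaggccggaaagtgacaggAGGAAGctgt
Adgrf5, upstream start, chr17:43360181-43360430, plus strand: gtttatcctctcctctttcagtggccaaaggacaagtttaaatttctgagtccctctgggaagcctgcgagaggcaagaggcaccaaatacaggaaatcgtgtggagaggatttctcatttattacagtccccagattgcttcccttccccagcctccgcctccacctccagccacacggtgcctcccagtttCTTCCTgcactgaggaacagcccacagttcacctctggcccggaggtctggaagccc
Adgrf5, downstream start, chr17:43389216-43389465, plus strand: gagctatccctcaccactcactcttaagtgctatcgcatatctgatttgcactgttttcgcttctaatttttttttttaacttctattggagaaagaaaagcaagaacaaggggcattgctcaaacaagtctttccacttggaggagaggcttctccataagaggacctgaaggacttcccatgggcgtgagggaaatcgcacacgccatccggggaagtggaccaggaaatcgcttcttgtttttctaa
Celsr2, chr3:108415580-108415829, minus strand: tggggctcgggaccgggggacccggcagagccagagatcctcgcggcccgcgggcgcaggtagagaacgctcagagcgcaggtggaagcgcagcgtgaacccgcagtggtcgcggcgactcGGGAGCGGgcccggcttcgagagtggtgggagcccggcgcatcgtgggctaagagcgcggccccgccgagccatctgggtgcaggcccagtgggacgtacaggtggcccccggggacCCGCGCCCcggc
Adgrb2, chr4:129984620-129984869, plus strand: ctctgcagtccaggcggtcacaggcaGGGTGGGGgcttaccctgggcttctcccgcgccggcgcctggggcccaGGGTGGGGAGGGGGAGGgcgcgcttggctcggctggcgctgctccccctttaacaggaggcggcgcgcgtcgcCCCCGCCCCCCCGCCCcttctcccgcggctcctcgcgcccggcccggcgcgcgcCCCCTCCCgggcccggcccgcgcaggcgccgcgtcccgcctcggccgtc

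The windows of the 3 genes that rose were not alike. Those of Adgrl4 and Adgrf5 held few CpG dinucleotides, 5 in Adgrl4 and 5 and 7 at the starts of Adgrf5, near the median of 6 over 32851 promoter windows. Celsr2 and Adgrb2 held 32 and 35. The GC content was 56.8% for Adgrl4, 54.4% and 44.8% for Adgrf5, 75.2% for Celsr2 and 81.6% for Adgrb2, beside a median of 52.4%. Adgrl4 and the upstream start of Adgrf5 each held 1 match to AGGAAG, which occurs in 29.5% of all windows. No shown window held CGGAAG or AGATAA, which occur in 13.6% and 9.99%. Celsr2 held 2 matches to CCNCNCCC and Adgrb2 held 8, some of them overlapping, and 45.9% of all windows hold at least 1. A match describes the letters only.

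Adgre5 (CD97) is a receptor of leukocytes that is also made by other cells, and CD55 and Thy1 are among its binding partners. Its gene lies at chr8:83723251-83741326 (minus strand). It was at 97.3, 87.5, 110 and 110 CPM in the E13 endocardial libraries and 194, 170, 144 and 163 CPM in the E13 coronary ones. The E17 libraries held 110 and 116 CPM (endocardial) and 347 and 380 CPM (coronary). Every coronary library lay above every endocardial one. The log2 fold change was 0.73 ± 0.09 at E13 and 1.69 ± 0.13 at E17 (edgeR adjusted p = 2.49e-05 and 5.74e-07), the effects differed by 0.95 ± 0.16 (edgeR adjusted p = 0.000687), and the rise with stage in coronary libraries was 1.12 ± 0.11 (edgeR adjusted p = 4.44e-06). Reads of Adgre5 and of Ddx39, whose exons overlap on the other strand, cannot be told apart where they overlap, and Ddx39 reached 2047.5 counts in a library. Adgre1, which encodes the macrophage antigen F4/80, totalled 51 counts over all 12 libraries and Ptprc was at or near 0. The 13 leukocyte markers summed to 47.8 to 70.6 CPM in coronary and 21.3 to 27.9 CPM in endocardial libraries at E13, and to 71.3 to 75 CPM and 40.1 to 44.4 CPM at E17. At E13, where 60% of all genes were called, 2 of the 10 tested were higher and 1 lower in coronary libraries. At E17, where 52.6% were called, 1 of the 10 was higher and 2 were lower. Their median log2 fold change was -0.12 at E13 and -2.41 at E17, beside -0.02 and -0.01 over all genes. At E17 the sum was thus higher and the median lower in coronary libraries. Mrc1, a receptor of macrophages and of some endothelia, was higher at both stages (log2 fold changes of 1.81 ± 0.16 and 1.79 ± 0.22, edgeR adjusted p = 1.30e-06 and 2.94e-05). Csf1r, the macrophage growth factor receptor, was higher at E13 and lower at E17 (1.21 ± 0.41 and -2.42 ± 0.66, edgeR adjusted p = 0.024 and 0.00797). The part of such cells in the Adgre5 level was not tested. Cd55 ran the other way from Adgre5 at E17, at 102 and 89.8 CPM in endocardial and 18.8 and 22.3 CPM in coronary libraries (log2 fold change -2.22 ± 0.18, edgeR adjusted p = 8.87e-07). At E13 it did not pass (-0.06 ± 0.13, edgeR adjusted p = 0.706). Thy1 was lower in coronary libraries at E13 (-0.66 ± 0.15, edgeR adjusted p = 0.00238) and did not pass at E17.

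**Figure D4:**
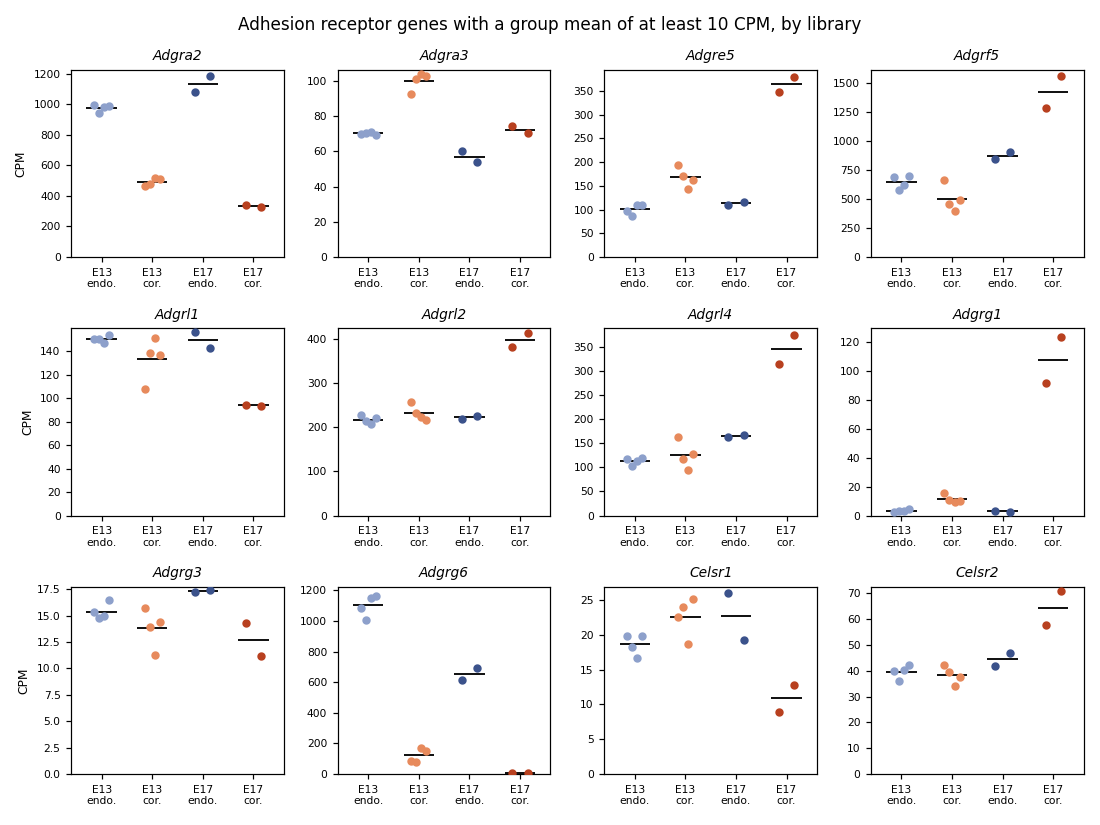
Points give the CPM of each library by group for the 12 members with a group mean of at least 10 CPM, bars are group means, and every axis starts at 0. Adgre5, Adgrf5, Adgrl2, Adgrl4, Adgrg1 and Celsr2 are highest in E17 coronary libraries, and Adgra2, Adgrl1, Adgrg6 and Celsr1 are lowest there.

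The latrophilins Adgrl1, Adgrl2 and Adgrl3 bind teneurins and FLRT proteins on neighbouring cells and are best known at synapses. Adgrl1 was at 150, 150, 147 and 154 CPM in the E13 endocardial libraries and 108, 138, 151 and 136 CPM in the E13 coronary ones. At E17 it was at 156 and 142 CPM in the endocardial and 94.3 and 93.4 CPM in the coronary samples. It did not pass at E13 (log2 fold change -0.17 ± 0.08, edgeR adjusted p = 0.0878). It was lower in coronary libraries at E17, by a log2 fold change of -0.67 ± 0.12 (edgeR adjusted p = 0.000436). Adgrl2 had the opposite change: 207 to 229 CPM in the E13 endocardial libraries and 257, 233, 224 and 216 CPM in the E13 coronary ones. In the E17 endocardial libraries it was at 220 and 225 CPM, and in the E17 coronary ones at 381 and 414 CPM. The difference did not pass at E13 (0.10 ± 0.06, edgeR adjusted p = 0.155), and the coronary level was higher by 0.84 ± 0.08 at E17 (edgeR adjusted p = 3.16e-06). In coronary libraries Adgrl1 fell by 0.51 and Adgrl2 rose by 0.77 on the log2 scale between stages (edgeR adjusted p = 0.00149 and 2.02e-06). The change of the population effect was 0.74 ± 0.10 for Adgrl2 (edgeR adjusted p = 0.000136). For Adgrl1 it was -0.50 ± 0.14 (adjusted p = 0.0189). That call was lost without E17 endocardial replicate 1, E17 coronary replicate 1 or E17 coronary replicate 2, with log2 values of -0.43, -0.51 and -0.49 (adjusted p = 0.0903, 0.0571 and 0.0674).

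Adgrl3 was scarce in endocardial libraries, at 0.639, 0.769, 0.600 and 0.535 CPM at E13 and 1.2 and 0.519 CPM at E17. It was at 2.11, 4.37, 7.16 and 4.59 CPM in E13 coronary and 2.81 and 2.16 CPM in E17 coronary libraries. The coronary level was higher by 2.82 ± 0.37 on the log2 scale in the E13 libraries (edgeR adjusted p = 3.22e-05) and by 1.5 ± 0.52 in the E17 ones (edgeR adjusted p = 0.0298). The E17 call was lost without E17 endocardial replicate 2, E17 coronary replicate 1 or E17 coronary replicate 2, at log2 fold changes of 1.04, 1.32 and 1.68 (adjusted p = 0.185, 0.118 and 0.0502). Without E17 endocardial replicate 1 it was 2.24 (adjusted p = 0.0236).

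Among the latrophilin ligands, Flrt2 was lower in coronary libraries at both stages, with 172 to 207 against 58.2 to 91.2 CPM at E13 and 242 and 218 against 39.8 and 30.0 CPM at E17. Its log2 fold changes were -1.37 ± 0.12 and -2.72 ± 0.19 (edgeR adjusted p = 1.62e-06 and 1.97e-07). Flrt3 was higher in coronary libraries at E13 (1.67 ± 0.26, edgeR adjusted p = 0.00016) and lower at E17 (-1.51 ± 0.43, edgeR adjusted p = 0.00991). Unc5b, a netrin receptor of tip cells and arteries that also binds FLRT proteins, was at 16.9 to 33.6 CPM in endocardial and 378 to 682 CPM in coronary libraries. Its log2 fold change was 4.43 ± 0.09 at E13 and 4.41 ± 0.13 at E17 (edgeR adjusted p = 7.44e-11 and 4.30e-10). Tenm3, a teneurin, was at 1.78 to 2.69 CPM in E13 endocardial and 14.8, 48.8, 73.3 and 44.3 CPM in E13 coronary libraries (log2 fold change 4.37 ± 0.45, edgeR adjusted p = 4.75e-06). At E17 its log2 fold change was 2.26 ± 0.75 (edgeR adjusted p = 0.0227). Tenm4 was higher in coronary libraries at E13 (1.63 ± 0.24, edgeR adjusted p = 9.61e-05) and lower at E17 (-1.16 ± 0.34, edgeR adjusted p = 0.0116).

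Celsr1, Celsr2 and Celsr3 carry cadherin repeats and set planar cell polarity, the alignment of cells within a sheet, together with Frizzled and Vangl proteins. Celsr1 was at 19.8, 18.3, 16.6 and 19.9 CPM in the E13 endocardial libraries and 22.6, 23.9, 18.7 and 25.2 CPM in the E13 coronary ones. At E17 the endocardial libraries held 26.0 and 19.3 CPM and the coronary ones 8.92 and 12.8 CPM. At E13 the coronary library was the higher in 4 of 4 batches, but the difference of 0.28 ± 0.13 on the log2 scale did not pass (edgeR adjusted p = 0.0846). Of 18 alternatives 15 gave no call for it either and the others gave one, with values from 0.23 to 0.38. At E17 the coronary level was lower by a log2 fold change of -1.06 ± 0.19 (edgeR adjusted p = 0.000609), and Celsr1 fell in coronary libraries by 1.05 between the stages (edgeR adjusted p = 0.000317). The 2 population effects differed by -1.33 ± 0.23 (edgeR adjusted p = 0.000962).

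Celsr2, whose CpG-rich start is printed above, changed in the other direction. It was at 39.8, 36.1, 40.2 and 42.2 CPM in the E13 endocardial libraries and 42.2, 39.7, 34.1 and 37.8 CPM in the E13 coronary ones. The E17 libraries held 41.8 and 47.0 CPM (endocardial) and 57.7 and 70.7 CPM (coronary). The E13 groups overlapped (log2 fold change -0.04 ± 0.08, edgeR adjusted p = 0.687, and 0.03 without E13 coronary replicate 3). At E17 the coronary level was higher by 0.53 ± 0.12 (edgeR adjusted p = 0.00209), and the rise in coronary libraries was 0.74 ± 0.10 (edgeR adjusted p = 5.96e-05). The difference of the effects, 0.58 ± 0.14 (adjusted p = 0.00875), became 0.49 and 0.42 without E17 endocardial replicate 1 or E17 coronary replicate 2 (adjusted p = 0.0543 and 0.0615). Celsr3 stayed too low to test, with 33 counts over the E13 endocardial and 11 over the E13 coronary libraries. The ratio per total was 2.64 (exact interval 1.3 to 5.79, for counting error only). An edgeR fit without the low-count filter gave a log2 fold change of -1.49 ± 0.65, which did not pass (adjusted p = 0.0858).

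All 18 other planar polarity genes on the list were tested. At E13 6 were higher and 4 lower in coronary libraries, and at E17 5 were higher and 8 lower, beside 60% and 52.6% of all genes called. The median log2 fold changes were -0.05 and -0.25, beside -0.02 and -0.01 over all genes. Vangl1, a core membrane component, was higher in coronary libraries at both stages (0.41 ± 0.05 and 1.05 ± 0.07, edgeR adjusted p = 1.18e-05 and 1.07e-07). Its relative Vangl2 was lower at both (-0.74 ± 0.08 and -0.68 ± 0.11, edgeR adjusted p = 4.28e-06 and 0.000246). Prickle2, a cytoplasmic component, was lower by log2 fold changes of -1.37 ± 0.10 and -1.98 ± 0.15 (edgeR adjusted p = 2.04e-07 and 3.50e-07). Wnt11, a Wnt of the polarity pathway, did not pass at E13 (-0.03 ± 0.07, edgeR adjusted p = 0.754) and was lower in coronary libraries at E17 by a log2 fold change of -4.65 ± 0.14 (edgeR adjusted p = 4.30e-10). From E13 to E17 in coronary libraries 6 of the 18 rose and 10 fell, where 24.6% of all genes were called higher and 25.6% lower, and the median log2 fold change was -0.52 beside -0.02 over all genes.

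The brain angiogenesis inhibitor receptors Adgrb1, Adgrb2 and Adgrb3 are best known in neurons, and Adgrb1 also takes part in the uptake of dying cells through Elmo1, Dock1 and Rac1. Adgrb2 was at 0.639, 0.576, 0.550 and 0.476 CPM in E13 endocardial and 3.84, 11.3, 13.9 and 8.64 CPM in E13 coronary libraries. At E17 it was at 0.491 and 0.194 CPM in endocardial and 0.892 and 0.419 CPM in coronary libraries. The E13 coronary libraries stood apart from all others. The E13 log2 fold change was 4.04 ± 0.40 (edgeR adjusted p = 3.13e-06), and the E17 difference did not pass (0.86 ± 0.76, edgeR adjusted p = 0.365). Between stages in coronary libraries it was -3.85 ± 0.54 (edgeR adjusted p = 9.17e-05), and -4.47 (adjusted p = 0.000942) without E17 coronary replicate 1. The effects differed by -3.18 ± 0.91 (adjusted p = 0.0182), which became -2.34 and -2.71 without E17 endocardial replicate 1 or E17 coronary replicate 2 (adjusted p = 0.28 and 0.0724), and -3.80 (adjusted p = 0.0218) without E17 coronary replicate 1. Adgrb1 was too low for the filter, with 1 count over the E13 endocardial libraries and 1, 10, 12 and 3 counts in the E13 coronary libraries. The ratio per total was 29.5 (exact interval 4.85 to 1210, for counting error only). Without the low-count filter, an edgeR fit gave a log2 fold change of 4.13 ± 1.14 at E13 (adjusted p = 0.00969). Between stages in coronary libraries that fit gave -5.63 ± 1.94 (adjusted p = 0.0389). Neither the E17 difference nor the difference of the 2 effects passed in it (adjusted p = 0.326 and 0.0695). Adgrb3 ranged from 0.953 to 2.26 CPM over all libraries and did not pass at either stage (log2 fold changes of -0.40 ± 0.27 and -0.52 ± 0.39, edgeR adjusted p = 0.218 and 0.295). Thbs1, whose protein thrombospondin-1 has the kind of repeat that Adgrb1 also carries, was at 64.8 to 72.9 CPM in E13 endocardial and 561 to 1362.0 CPM in E13 coronary libraries (log2 fold change 3.87 ± 0.28, edgeR adjusted p = 2.48e-07).

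The 4 E13 coronary libraries differed among themselves, and the 18 tested members did not share an order there. In 5 members (Adgra2, Adgra3, Adgrb2, Adgrl1 and Adgrl3) replicate 3 was the highest and replicate 1 the lowest, in 7 (Adgre5, Adgrf5, Adgrg1, Adgrg3, Adgrg5, Adgrl4 and Celsr2) it was the reverse, and 6 (Adgrb3, Adgrg2, Adgrg6, Adgrl2, Adgrv1 and Celsr1) had neither order. Adgrb2 was lowest in replicate 1 and highest in replicate 3, as were Adgrl3 and the latrophilin ligand Tenm3. The same held for Col1a1, a collagen gene of fibroblasts (285, 787, 1083.6 and 687 CPM), and Erbb3, a receptor of Schwann cell precursors (6.76, 19.6, 27 and 18.6 CPM). Adgrf5, Adgrl4 and Adgre5 peaked in replicate 1 and had their minimum in replicate 3, as did Pecam1 (1236.6, 973, 861 and 1024.2 CPM), Cdh5, Kdr and the epicardial marker Wt1. No other epicardial marker on the list had the order of Wt1. Tbx18 (6.38, 18.9, 32.6 and 15.3 CPM) and Sema3d (7.57, 9.83, 10.4 and 8.85 CPM) were lowest in replicate 1 and highest in replicate 3. The genes set beside the members here were chosen after their values were seen. Adgrg6 was highest in replicate 3 and lowest in replicate 2. Over the 11 fibroblast markers, 10 were called higher in coronary libraries at E13, and their summed level was 2752 to 7186 CPM there and 1850 to 2082 CPM in E13 endocardial libraries. At E17 6 were higher and 2 lower, with sums of 2246 to 4933 CPM in coronary and 2235 to 2474 CPM in endocardial libraries. Of the 10 glial and neural markers 6 were tested, and 5 were higher and 1 lower at E13. Their sum was 22.7 to 54.5 CPM in E13 coronary libraries, 4.47 to 5.65 CPM in E13 endocardial, 3.63 to 5.73 CPM in E17 endocardial and 7.37 to 10.4 CPM in E17 coronary libraries. Foxd3 had no count in either endocardial group, and Sox10 had none in E17 endocardial libraries. Of the 12 mural markers 7 were higher at E13 and 10 at E17 in coronary libraries. Their sum was 390 to 777 CPM in E13 coronary and 251 to 274 CPM in E13 endocardial libraries. At E17 it was 865 to 1128 CPM in coronary and 179 to 181 CPM in endocardial libraries. Abcc9 alone held 118 to 195 CPM in E13 coronary libraries, and 539 and 515 CPM in E17 coronary ones. In E13 coronary libraries Abcc9 and Kcnj8 had the order of Pecam1. Rgs5, Cspg4, Notch3, Acta2, Tagln, Cnn1 and Pdgfrb were lowest in replicate 1 and highest in replicate 3. Pdgfrb and Cnn1 were not called at E17. Of the 10 epicardial markers 9 were tested, and 7 were higher and 1 lower in coronary libraries at E13 and 5 higher and 0 lower at E17. Their sum was 91.3 to 103 CPM in E13 coronary and 18.4 to 23.2 CPM in E13 endocardial libraries, and 161 to 168 CPM and 17 to 17.9 CPM at E17. Wt1 alone held 76.9, 56.0, 39.8 and 52.2 CPM in the E13 coronary libraries and 103 and 134 CPM in the E17 coronary ones. Over all genes, 30.1% were called higher and 29.9% lower at E13, and 26.5% and 26.1% at E17. The part of such cells in the levels of Adgrb1, Adgrb2, Adgrg1, Adgrg2, Adgrg6 and Adgrl3 was not tested. Nor was it tested for ligand genes such as Lama2, Prnp and Col3a1.

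**Figure D5:**
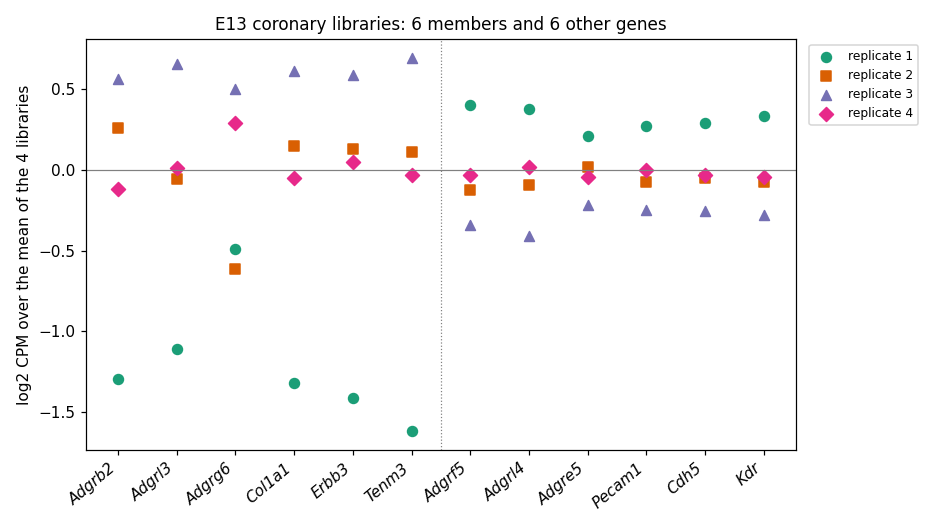
The y axis gives log2 CPM relative to the mean of the 4 E13 coronary libraries for 6 members and 6 other genes, with a symbol for each replicate. Left of the dotted line replicate 3 is the highest, and replicate 1 is the lowest for all but Adgrg6. Right of it replicate 1 is the highest and replicate 3 the lowest.

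Adgrv1, the very large receptor of hair cell and photoreceptor links, was the remaining tested member. It ranged from 0.539 to 1.61 CPM over all 12 libraries and did not pass between populations at either stage (log2 fold changes of -0.43 ± 0.26 and -0.46 ± 0.42, edgeR adjusted p = 0.172 and 0.413).

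The 13 members too low to test were Adgra1, Adgrb1, Adgrd1, Adgrd2-ps, Adgre1, Adgre4, Adgrf1, Adgrf2, Adgrf3, Adgrf4, Adgrg4, Adgrg7 and Celsr3. Adgrg4 and the pseudogene Adgrd2-ps had no count in any library, where 3 counts, the limit that a count of 0 allows, correspond to 0.11 to 0.20 CPM depending on depth. Adgra1 and Adgrg7 totalled 2 and 1 counts over all libraries, Adgre4 6, Adgrf1 7, Adgrf3 8 and Adgrd1 18. Adgrf4 had 55 counts in all, Celsr3 53, Adgre1 51, Adgrf2 48 and Adgrb1 29, and no library held more than 15 counts of any of these 13 genes. At E17 Adgre1 had 15 and 4 counts in the endocardial and 3 and 2 in the coronary libraries, so that most of its counts there lay in endocardial replicate 1. Its ratio per total, endocardial over coronary, was 3.5 at E17 (exact interval 1.26 to 12, for counting error only). Without the low-count filter, an edgeR fit gave a log2 fold change of -1.71 ± 1.23, which did not pass (adjusted p = 0.334). For Adgrf4 and Adgrd1 the intervals of the ratio included 1 at both stages, and differences were not detectable at this depth.

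Lists of related genes were counted in the same fits, where 30.1% of all genes were called higher and 29.9% lower at E13, and 26.5% and 26.1% at E17. Of the 12 G protein alpha subunit genes 11 were tested. At E13 8 were higher and 2 lower in coronary libraries, and at E17 6 were higher and 2 lower, with medians of 0.36 and 0.41 on the log2 scale beside -0.02 and -0.01 over all genes. Gnai1 was higher by 1.96 ± 0.08 at E13 and 0.69 ± 0.11 at E17 (edgeR adjusted p = 2.74e-09 and 0.00015), and Gnai2 by 0.36 ± 0.08 and 1.24 ± 0.12 (edgeR adjusted p = 0.00265 and 3.53e-06). Gnaq was lower at both, by log2 fold changes of -0.27 ± 0.05 and -0.23 ± 0.07 (edgeR adjusted p = 0.000431 and 0.0144). Of the 36 genes of ligands and partners 31 were tested, of which 16 were higher and 10 lower at E13 and 14 higher and 11 lower at E17. Their median log2 fold changes were 0.73 and 0.24, beside -0.02 and -0.01 over all genes. In coronary libraries 10 rose and 13 fell from E13 to E17, where 24.6% of all genes rose and 25.6% fell. Among the engulfment partners of Adgrb1, Elmo1 was higher in coronary libraries at both stages (0.73 ± 0.12 and 1.09 ± 0.17, edgeR adjusted p = 0.000199 and 0.000163). Dock1 was higher at E17 by 1.22 ± 0.08 (edgeR adjusted p = 7.78e-08) and did not pass at E13 (0.01 ± 0.05, edgeR adjusted p = 0.923), and its effect differed between stages by 1.21 ± 0.09 (edgeR adjusted p = 2.19e-06).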

How the data were processed

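Single-read RNA-seq libraries of 12 sorted samples were analysed from 1 deposited table of 41214 genes. Its values are the authors' expected counts per gene, of which 18.3% are not whole. The submitters' processing notes name RSEM 1.2.3, cutadapt 1.3, CASAVA 1.8.2 and build GRCm38. The settings are not stated in any source used here. Per the labels' protocols, RNA came from a PicoPure kit and polyadenylated RNA went into NEBNext Ultra libraries, so reads of overlapping genes on opposite strands cannot be separated. RSEM divides reads that fit several genes.

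Expected counts were rounded to whole numbers and genes kept by filterByExpr (minimum count 10, minimum total 15), which left 15171. Counts were fitted in edgeR 4.0.16 (R 4.3.3) by quasi-likelihood, with TMM scaling and 4 group means over all 12 libraries (8 residual degrees of freedom, common biological coefficient of variation 0.126), with Benjamini-Hochberg adjustment over all genes tested and a threshold of 0.05. Groups of 2 libraries share the spread of the others. A standard error is the size of the log2 fold change divided by the root of its F statistic. Levels per kilobase divide CPM by the union of a gene's GENCODE M21 exons. The ratios with exact 95% intervals divide pooled counts by unscaled library totals. These intervals cover counting error only, not the spread between libraries. The edgeR step was tested on simulated counts. DESeq2 1.42.0, other scalings, filters and sample sets, the batch block and the loss of each library were alternatives.

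Within each group the replicates differed beyond counting noise, and none was merged. Endocardial and coronary libraries of 1 batch label are paired by that label. Over 9481 genes their deviations from group means correlated at 0.377, 0.682, 0.367 and 0.478 at E13 and 0.38 at E17. Pairs of different batch labels ranged from -0.508 to 0.439 at E13. The endocardial library of batch 3 correlated more with the coronary library of batch 4 (0.439) than with that of batch 3. With 2 libraries a group the E17 deviations mirror each other, so both batches give the same value.

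The members and the 12 lists of other genes were chosen with earlier results of these data known. All tested members are named, those with a group mean of at least 10 CPM by library. Of the other lists, up to 4 genes per comparison and the ligands or partners of a described member are named.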

Additional observations from a re-analysis of the deposited data

Results flagged for a closer look

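For 11 of the 18 tested members the coronary minus endocardial log2 fold change differed between E17 and E13 by the edgeR interaction test (adjusted p under 0.05), beside 32.7% of all tested genes. It was larger at E17 for 6: Adgrg1 by 3.36, Adgrf5 by 1.06, Adgre5 by 0.95, Adgrl4 by 0.91, Adgrl2 by 0.74 and Celsr2 by 0.58. It was smaller or more negative at E17 for 5: Adgrg6 by -3.93, Adgrb2 by -3.18, Celsr1 by -1.33, Adgra2 by -0.77 and Adgrl1 by -0.50. Each of these is the difference of 2 log2 fold changes. Stage cannot be told apart from genotype, gate or batch in any of them. Among the 36 groups of 4 libraries that were checked for a library far from the others (18 members in each E13 group), 0 were found, where chance gives about 1 in 20.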

How the results depend on the processing

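Over the alternatives, 1154 of 1209 recomputed values kept their direction and side of the threshold, 32 lost a call, 20 gained one and 3 changed sign. Of 49 called member results, 38 stayed called under every alternative run. The sign changes were of values that had not passed: leaving out each library, Celsr2 at E13 ranged from -0.083 to 0.033 (0.033 without E13 coronary replicate 3). Adgrg5 ranged from -0.35 to 1.76 at E17 and from -0.041 to 2.05 between stages in coronary libraries, with the negative values without E17 coronary replicate 2. Leaving out each library in turn, the members called numbered 8 to 11 at E13, 10 to 13 at E17, 0 to 5 between stages in endocardial libraries, 12 to 13 in coronary libraries and 8 to 13 for the stage difference. Under the other alternatives the counts stayed within 1.5 times the main ones. The replicate block, with the batch label as the pairing, changed no call and gave 9, 13 and 11 members for the population comparisons at E13 and E17 and their difference. Stage comparisons have no shared batch, so no paired fit of them can be had. Depth limits members under about 1 CPM, and 2 libraries a group limit E17.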
